A study of Mus musculus with 9 samples.

Results

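Cytosolic ribosomal proteins are the protein parts of the ribosome of the cytosol, in the large (60S) and the small (40S) subunit. Their genes were found by symbol in the platform's gene annotation (Rpl or Rps and a number, optionally followed by a, l, x or y, with Rplp0, Rplp1, Rplp2 and Rpsa). Symbols with -ps and the Rps6k kinases were left out. Of the 19938 genes tested 59 met this rule, 37 of the 60S and 22 of the 40S subunit. Among the 59 is Rps4l, which RefSeq lists as a transcribed pseudogene. A further 23 protein-coding genes whose symbols fit the rule had no row of their own and are not among the 59. Rows with several symbols held 15 of them, Rpl11, Rpl3 and Rps27 included, and were read only in an alternative fit. RNA came from whole ear skin of female C57BL/6 mice aged 7 to 9 weeks, with 3 arrays for each of 3 groups. The anisomycin group had 10 µl of a 2 mg/ml solution in 99.5% ethanol put on each side of the ear every day for 5 days. The imiquimod group had 10 mg of a 5% imiquimod cream daily for 5 days, and for the vehicle group the labels used here give neither the vehicle nor its duration. One agent came in ethanol and the other in a cream, so agent and carrier cannot be told apart between the treatments. Against vehicle they may not be either, and below each treatment is named by its agent. Expression was measured on Affymetrix Mouse Gene 1.0 ST arrays, and each value below is a log2 expression value as deposited. The labels do not tie arrays to single animals, so the p-values cover the spread between arrays, which may be technical if animals were shared or pooled.

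Ribosomal proteins are made in near-equal amounts, as each ribosome takes 1 copy of nearly every one. Their mRNAs are among the most abundant of the cell and mostly begin with a run of pyrimidines, the 5′ terminal oligopyrimidine tract, through which mTORC1 and its effector LARP1 set their translation and stability. Anisomycin binds the peptidyl transferase centre of the ribosome, stops elongation and triggers the ribotoxic stress response, in which a kinase sensing stalled ribosomes turns on p38 and JNK. Imiquimod is an agonist of Toll-like receptor 7 and is not known as an inhibitor of ribosomes. The comparisons below ask how the mRNAs of the ribosome itself stood in skin under the agent that binds it and under the other.

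The starts of 9 genes are shown, so that genes called in opposite directions can be set side by side. Among members with an entry in the RefSeq promoter table, Rpl3l, Rps28, Rps25, Rps4x and Rps12 had the 5 largest called falls under anisomycin against vehicle, and Rpl12, Rpl7a, Rpl34 and Rpl10 were the 4 called higher. Each runs from 60 bases before to 20 bases after the annotated start of transcription, 5′ to 3′ on the gene's strand, from RefSeq with build GRCm38.p6. Capitals mark each run of at least 6 C or T bases that reaches within 10 bases of the start. Rpl3l and Rpl34 have 2 annotated starts each, of which the first listed is shown. For Rpl34 the longest such run over both starts has 20 bases, against 8 at the start shown.
Rpl3l (chr17:24727766-24727845, plus strand): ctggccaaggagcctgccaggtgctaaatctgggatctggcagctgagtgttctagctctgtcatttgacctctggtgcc
Rps28 (chr17:33824543-33824622, minus strand): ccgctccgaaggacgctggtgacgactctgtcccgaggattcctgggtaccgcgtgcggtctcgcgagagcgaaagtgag
Rps25 (chr9:44407654-44407733, plus strand): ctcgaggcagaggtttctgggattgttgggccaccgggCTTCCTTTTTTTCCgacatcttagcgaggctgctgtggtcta
Rps4x (chrX:102189372-102189451, minus strand): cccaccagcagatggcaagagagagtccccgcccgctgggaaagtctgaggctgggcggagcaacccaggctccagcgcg
Rps12 (chr10:23787190-23787269, minus strand): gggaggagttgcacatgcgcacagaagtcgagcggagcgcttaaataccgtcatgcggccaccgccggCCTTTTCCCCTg
Rpl12 (chr2:32961652-32961731, plus strand): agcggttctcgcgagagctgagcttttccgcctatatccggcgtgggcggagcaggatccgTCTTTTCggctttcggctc
Rpl7a (chr2:26910747-26910826, plus strand): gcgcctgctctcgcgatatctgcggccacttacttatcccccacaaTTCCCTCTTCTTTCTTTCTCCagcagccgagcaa
Rpl34 (chr3:130730379-130730458, minus strand): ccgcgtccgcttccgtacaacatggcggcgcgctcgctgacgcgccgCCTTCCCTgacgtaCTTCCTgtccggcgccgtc
Rpl10 (chrX:74270756-74270835, plus strand): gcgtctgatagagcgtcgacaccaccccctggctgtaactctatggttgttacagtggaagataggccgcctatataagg
A marked run stands in Rps25 and Rps12, which were lower, and in Rpl12, Rpl7a and Rpl34, which were higher. No such run lies in this window of Rps28, Rps4x, Rpl3l or Rpl10. Of the 59 genes, 47 had an entry, and Rps20 and Rps4l had none. Such a run was present for 26 of the 47 members (55.3%), against 32.7% of the 27025 genes in the table, where a gene counts if any of its annotated starts has the feature. It was present for 8 of the 18 members with an entry that were lower under anisomycin than under vehicle (44.4%) and for 18 of the other 29 (62.1%). The motif CCGGAAG, the core bound by GABP and other ETS factors, was found on either strand between 250 bases before and 50 bases after the start for 18 of the 47 (38.3%), against 9.93% of all genes, and 13 of these members also had the run, with the 2 matches overlapping in 1 member. It was found for 6 of the 18 lower members (33.3%) and 12 of the 29 others (41.4%). The motif AAGATGGC, part of the site bound by YY1, was found in the same window for 2 members (4.26%), against 3.19% of all genes. These matches are descriptions of the letters and were not tested.

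Under anisomycin, 21 of the 59 genes (35.6%) were lower and 5 (8.47%) higher than under vehicle, where a call is an adjusted p under 0.05 in limma (Benjamini-Hochberg, over all genes). The falls were small: the median log2 difference of the 59 was −0.11, against −0.01 for all genes, and after Rpl3l the 5 largest were all in 40S genes. Much of the transcriptome differed from vehicle in both treated groups. Of all genes tested, 45.6% were called in this comparison, 23.3% as lower and 22.3% as higher, so the share of members called, 26 of 59 (44.1%), was near the background. The split by direction was not, with more lower and fewer higher members than among all genes. Under imiquimod 12 members (20.3%) were higher and 5 (8.47%) lower than under vehicle, with a median difference of 0.05 against −0.03 for all genes and a background of 42.7% called, 20.4% as higher and 22.4% as lower. The 3 anisomycin values lay wholly below the vehicle values in 21 members and wholly above them in 6, against 26.4% and 24.9% of all genes (51.3% in either direction). The imiquimod values lay wholly below in 5 and wholly above in 19, against 27.4% and 24.4% (51.8% in either direction). Both comparisons share the vehicle arrays. No member changed by as much as 1 log2 unit in any comparison, and 5 members under anisomycin and 2 under imiquimod differed from vehicle by 0.5 or more.

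**Figure D1:**
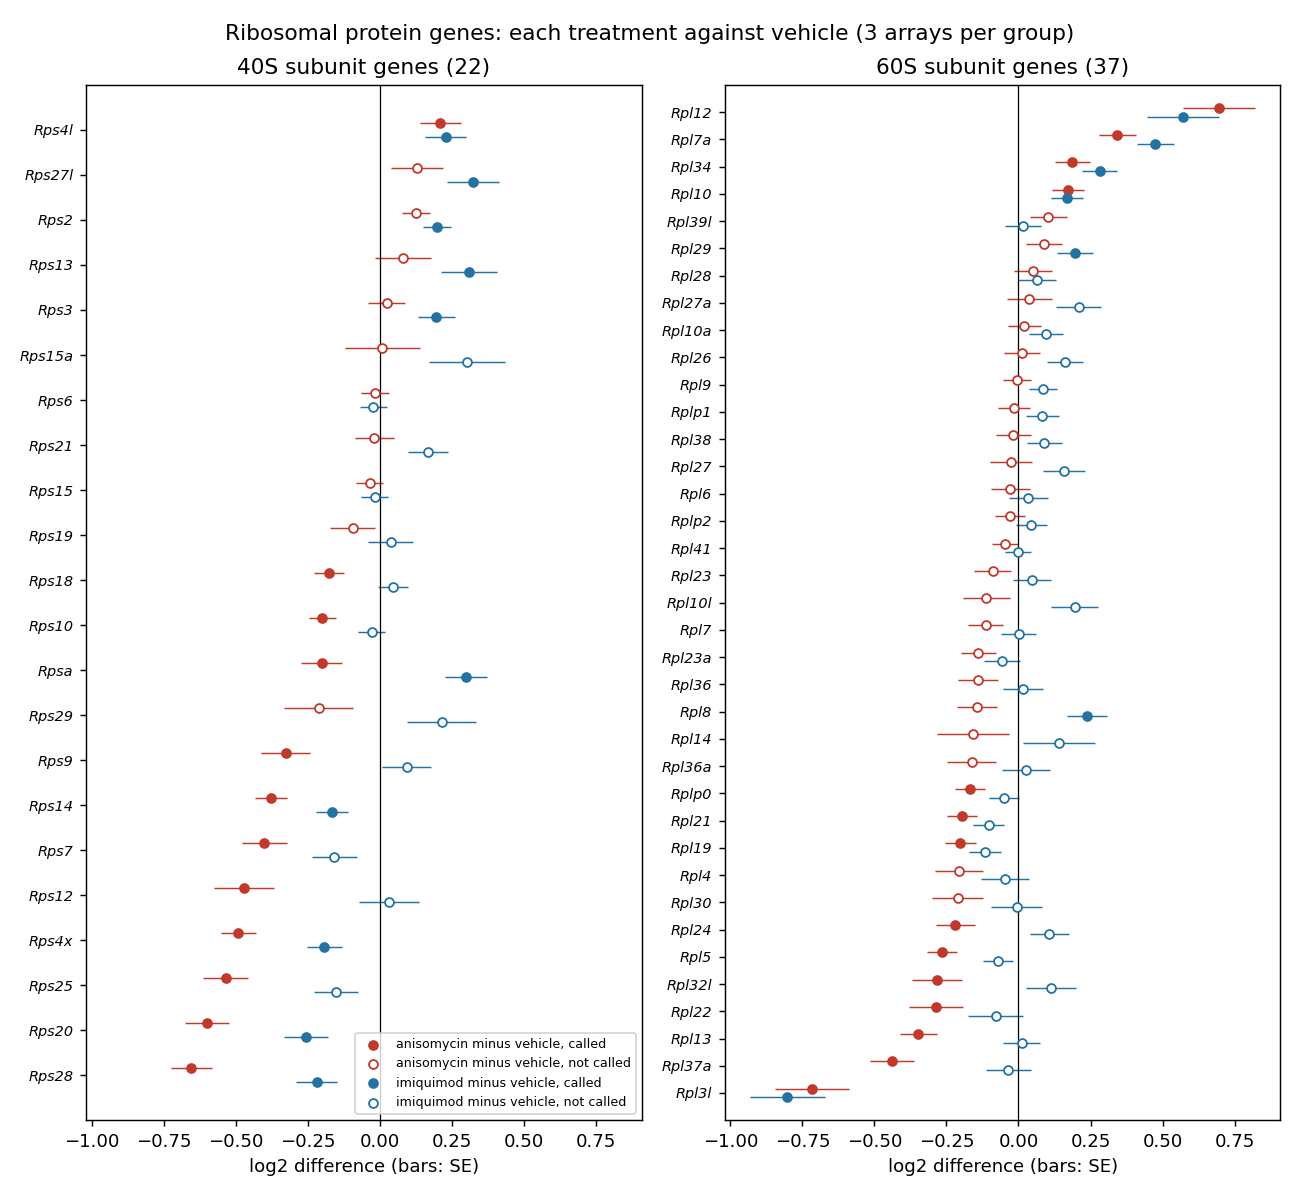
Log2 differences of the 37 large and 22 small subunit genes from vehicle under anisomycin and under imiquimod, with standard errors as bars (3 arrays per group) and filled points for genes called at an adjusted p under 0.05. Among the small subunit genes 11 were called lower and 1 higher under anisomycin, against 4 lower and 6 higher under imiquimod.

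All calls in the direct comparison of the treatments had one direction. Anisomycin arrays were lower than imiquimod arrays for 18 of the 59 genes (30.5%) and higher for 0 in limma, where 9.59% of all genes were lower and 10.8% higher. At an unadjusted p under 0.05 in limma, 28 members were lower and 0 higher, against 2979 lower and 3347 higher of all 19938 genes. The 3 anisomycin values lay wholly below the 3 imiquimod values in 43 of the 59 genes, which held for 17.9% of all genes, and wholly above them in 0, against 21.4% of all genes (39.3% in either direction). The difference was negative for 54 of the 59, with a median of −0.17, against 0.01 for all genes. With arrays weighted by their quality the members' median was −0.13, against 0.01 for all genes. The member counts were 35 lower and 2 higher with these weights, and 11 lower and 0 higher without imiquimod array 1. Calls over all genes were not counted in these fits, so the counts have no background to be set against.

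The counts in each subunit were as follows, and the difference between the subunits was not tested. Of the 22 small subunit genes, 11 were lower and 1 was higher under anisomycin than under vehicle, with a median difference of −0.19, and 11 were lower and 0 higher than under imiquimod, with a median of −0.23. Of the 37 large subunit genes, 10 were lower and 4 higher than under vehicle, with a median of −0.11, and 7 were lower and 0 higher than under imiquimod, with a median of −0.12. Under imiquimod against vehicle, 6 of the 22 small subunit genes were higher and 4 lower, and 6 of the 37 large subunit genes were higher and 1 lower, against 20.4% higher and 22.4% lower among all genes. These counts against vehicle depended on the scaling of the arrays. Under anisomycin, 16 of 22 small and 27 of 37 large subunit genes were lower with repeated quantile normalization, 17 and 29 with cyclic loess, 11 and 19 with arrays centred on the most stable genes, and 9 and 4 with array medians. In the same order, 5083, 4528, 6390 and 4005 of all 19938 genes were lower and 4129, 4661, 3773 and 5175 higher. The share of members lower was thus near equal in the subunits under 3 of the 4 scalings, while the median was lower in the 40S genes under all 4. Under imiquimod, 0 small subunit genes were higher and 10 lower with repeated quantiles, and 0 and 12 with cyclic loess, while 3 large subunit genes were higher under both and 15 and 22 lower. Between the treatments, 9 to 12 of the 22 small and 6 to 12 of the 37 large subunit genes were lower under the 4 scalings.

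Rps28, a small protein of the 40S head near the exit of the mRNA channel, stood at 10.90, 11.01 and 10.92 on the vehicle arrays, 10.15, 10.32 and 10.39 on the anisomycin arrays and 10.78, 10.74 and 10.65 on the imiquimod arrays. The 3 groups did not overlap, with anisomycin lowest and imiquimod between. It differed from vehicle by −0.65 (SE 0.07, adjusted p = 5.65e-05, limma) under anisomycin and by −0.22 (SE 0.07, adjusted p = 0.0325) under imiquimod, and anisomycin differed from imiquimod by −0.43 (SE 0.07, adjusted p = 0.00332). Rps20, a protein of the 40S head that is ubiquitinated on collided ribosomes, read 12.01, 11.86 and 12.04 under vehicle, 11.21, 11.43 and 11.46 under anisomycin and 11.72, 11.72 and 11.69 under imiquimod. The order of the groups was the same, again with no overlap. Its differences from vehicle were −0.60 (SE 0.08, adjusted p = 0.000157, limma) and −0.26 (SE 0.08, adjusted p = 0.0232), and anisomycin stood −0.35 (SE 0.08, adjusted p = 0.0132) from imiquimod.

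Rps4x, the X-linked 40S protein of the subunit body, and Rps14, a protein of the 40S platform, completed the group of 4 genes that were lower than vehicle under both agents and lower under anisomycin than under imiquimod. Rps4x read 11.60, 11.51 and 11.58 under vehicle, 10.96, 11.09 and 11.17 under anisomycin and 11.40, 11.36 and 11.36 under imiquimod, without overlap. It was −0.49 (SE 0.06, adjusted p = 0.000124, limma) from vehicle under anisomycin and −0.19 (adjusted p = 0.0284) under imiquimod. Rps14 read 11.45, 11.40 and 11.49 under vehicle, 11.00, 11.05 and 11.16 under anisomycin and 11.28 on each imiquimod array. Its differences from vehicle were −0.38 (SE 0.05, adjusted p = 0.000344, limma) and −0.17 (adjusted p = 0.0348). For these 4 genes the falls under anisomycin against vehicle held under all 22 alternatives per comparison, which include 4 other scalings and each array left out. Against imiquimod the calls of Rps28, Rps20 and Rps4x held under all 22, and that of Rps14 (−0.21, adjusted p = 0.0244, limma) was lost in 8. The smaller falls under imiquimod did not hold in all of them for any of the 4.

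A second group of 10 genes was lower under anisomycin than under both other groups, with no call between imiquimod and vehicle: Rpl5, Rpl13, Rpl24, Rpl32l, Rpl37a, Rps9, Rps10, Rps12, Rps18 and Rps25. Rps25, needed for initiation at some viral internal ribosome entry sites, read 10.60, 10.48 and 10.70 under vehicle, 9.95, 10.10 and 10.13 under anisomycin and 10.42, 10.54 and 10.36 under imiquimod. The anisomycin values were the lowest 3 of the 9, and the other groups overlapped. It was −0.54 (SE 0.08, adjusted p = 0.000332, limma) from vehicle and −0.38 (adjusted p = 0.00843) from imiquimod. Rps12, a protein of the 40S beak, read 10.67, 10.88 and 10.66 under vehicle, 10.05, 10.36 and 10.40 under anisomycin and 10.87, 10.79 and 10.65 under imiquimod. Anisomycin differed by −0.47 (SE 0.10, adjusted p = 0.00457, limma) from vehicle and by −0.50 (SE 0.10, adjusted p = 0.00991) from imiquimod, and imiquimod and vehicle differed by 0.03 (adjusted p = 0.849). All 14 probe sets of Rps12 were called lower in both comparisons.

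Of the large subunit, Rpl37a read 10.92, 11.06 and 10.89 under vehicle, 10.39, 10.52 and 10.64 under anisomycin and 10.92, 11.00 and 10.84 under imiquimod. Its anisomycin values lay below all others, at −0.44 (SE 0.08, adjusted p = 0.00122, limma) from vehicle and −0.40 (adjusted p = 0.00698) from imiquimod. Rpl5, which with Rpl11 and 5S RNA forms the particle that can bind and inhibit the p53 ligase Mdm2, read 11.09, 11.01 and 11.11 under vehicle, 10.76, 10.82 and 10.83 under anisomycin and 11.05, 11.00 and 10.94 under imiquimod. Here too only the anisomycin values stood apart, at −0.27 (SE 0.05, adjusted p = 0.00229, limma) from vehicle and −0.19 (SE 0.05, adjusted p = 0.0293) from imiquimod. Rps9, a protein that joins the 40S early and lines the mRNA entry channel, read 10.07, 10.14 and 10.27 under vehicle, 9.69, 9.90 and 9.90 under anisomycin and 10.28, 10.34 and 10.13 under imiquimod. It was −0.42 (adjusted p = 0.00848, limma) from imiquimod and −0.33 (SE 0.08, adjusted p = 0.0104) from vehicle, and the call against vehicle was lost with the mean of its probe sets or the dimmest one. Rps10, the main ubiquitination target on collided ribosomes beside Rps20, differed from vehicle by −0.20 (SE 0.05, adjusted p = 0.00621, limma). The remaining genes of the group ranged with these between −0.54 and −0.18 from vehicle. A further 5 genes were lower under anisomycin than under vehicle with neither of the other comparisons called: Rpl19, Rpl21, Rpl22, Rplp0 and Rps7, of which Rps7, another Mdm2-binding protein, fell most (−0.40, SE 0.08, adjusted p = 0.00218, limma). The call of Rpl19 rests on 1 of its 7 probe sets, at −0.20, with the other 6 between −0.10 and −0.03 and not called.

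**Figure D2:**
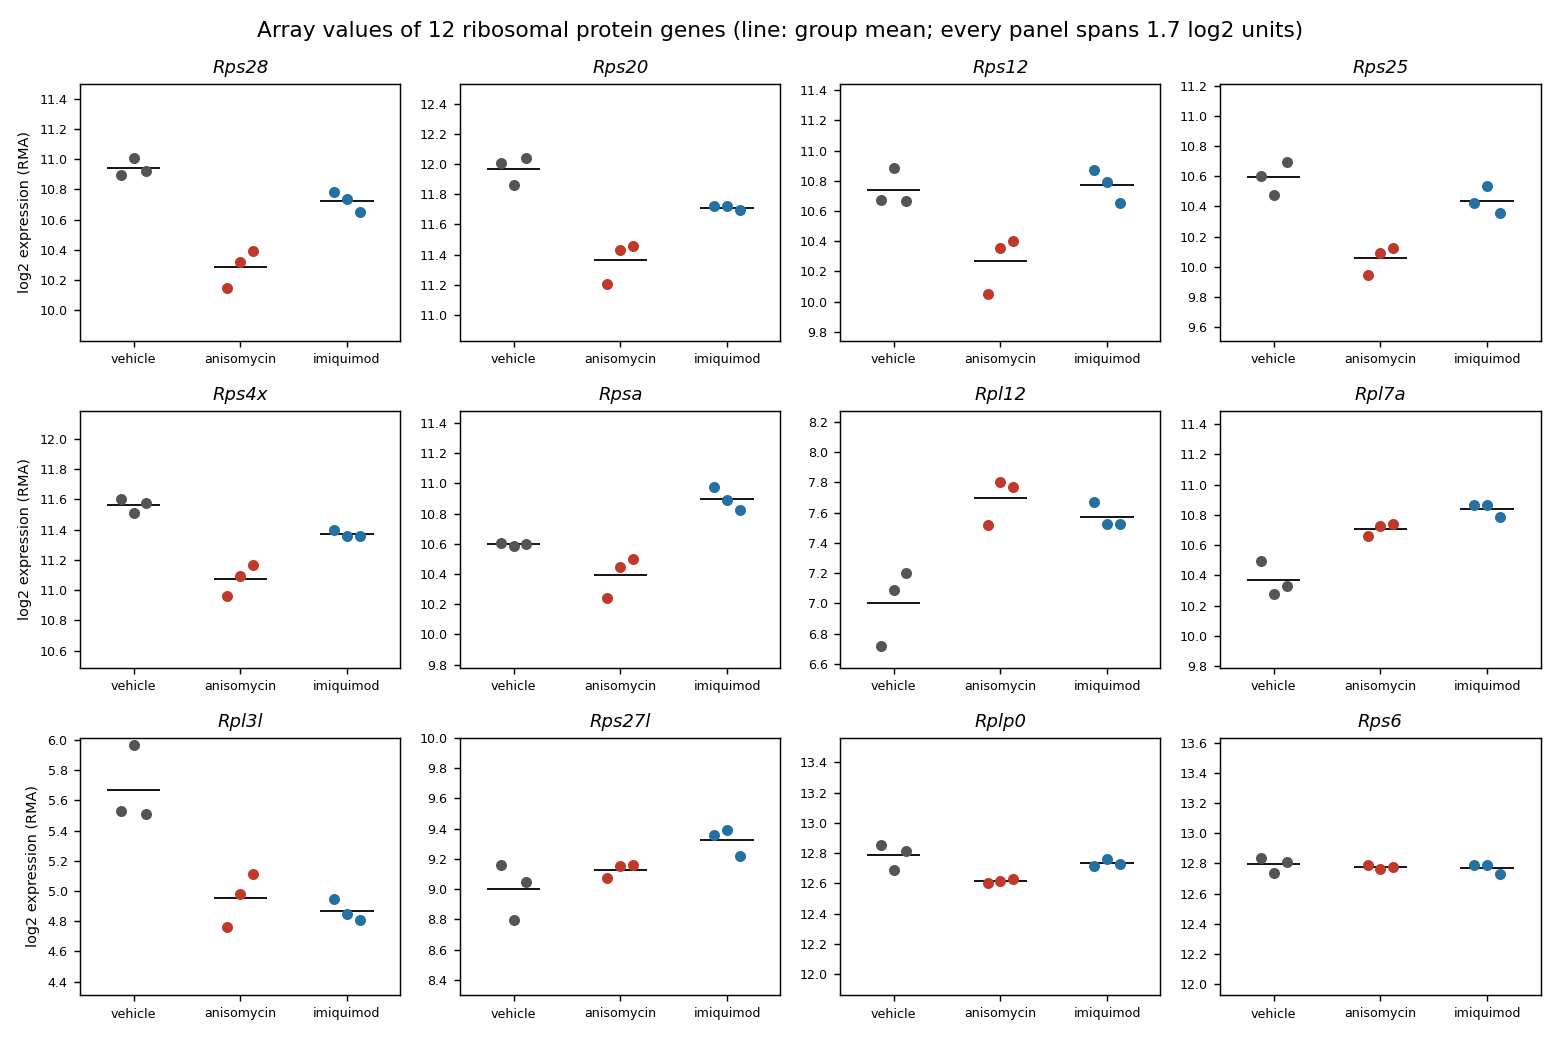
Log2 expression of 12 ribosomal protein genes on each of the 9 arrays, 1 point per array and a line at the group mean. The anisomycin points of Rps28, Rps20, Rps12, Rps25 and Rps4x lie below all points of the other groups, those of Rpl12 and Rpl7a lie above all vehicle points, and Rps6 overlaps in all 3 groups.

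Rpsa was the one gene called in opposite directions by the treatments. It is a 40S protein also known as the laminin receptor precursor, and read 10.61, 10.58 and 10.60 under vehicle, 10.24, 10.44 and 10.50 under anisomycin and 10.98, 10.89 and 10.82 under imiquimod. The groups did not overlap, with vehicle in the middle. It was 0.30 (SE 0.07, adjusted p = 0.00806, limma) above vehicle under imiquimod and −0.20 (SE 0.07, adjusted p = 0.0452) from vehicle under anisomycin, and 13 of the 22 alternatives lost the latter call and 4 the former, with imiquimod differences as low as 0.0040. Anisomycin differed from imiquimod by −0.50 (SE 0.07, adjusted p = 0.00195, limma), a call kept in all 22. Its 5 probe sets spread from −0.67 to −0.20 for anisomycin against vehicle and from −0.12 to 0.30 for imiquimod against vehicle, but only from −0.55 to −0.46 between the treatments.

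Rps29, Rpl8 and Rpl10l were also lower under anisomycin than under imiquimod. Rps29, a zinc-binding protein of the 40S head, read 9.59, 9.56 and 9.60 under vehicle, 9.05, 9.45 and 9.61 under anisomycin and 9.80, 9.83 and 9.75 under imiquimod. Anisomycin array 1 was far below the other 2, which lay near vehicle, and the difference from imiquimod was −0.43 (SE 0.12, adjusted p = 0.0333, limma). Rpl8, near the peptidyl transferase centre, was 0.24 (SE 0.07, adjusted p = 0.0212, limma) above vehicle under imiquimod and −0.38 (adjusted p = 0.00574) from imiquimod under anisomycin.

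The genes that were higher than vehicle under anisomycin, Rpl7a, Rpl10, Rpl12, Rpl34 and Rps4l, were called higher under imiquimod as well. Rpl12, a protein at the base of the stalk where elongation factors dock, read 6.72, 7.09 and 7.20 under vehicle, 7.52, 7.80 and 7.77 under anisomycin and 7.67, 7.52 and 7.52 under imiquimod. All 6 treated values lay above all 3 vehicle values, and the treatments overlapped. It rose by 0.70 (SE 0.12, adjusted p = 0.00132, limma) and 0.57 (SE 0.12, adjusted p = 0.00469), and both calls held under all 22 alternatives. Rpl7a, of the large subunit, read 10.49, 10.27 and 10.33 under vehicle, 10.66, 10.73 and 10.74 under anisomycin and 10.87, 10.87 and 10.79 under imiquimod. The groups stood in that order without overlap. The rise under imiquimod, 0.47 (SE 0.06, adjusted p = 0.000276, limma), held under all 22 alternatives, and that under anisomycin, 0.34 (SE 0.06, adjusted p = 0.00174), was lost under repeated quantile normalization and under cyclic loess.

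The other 3 rises were smaller. Rpl34 read 9.63, 9.72 and 9.59 under vehicle, 9.79, 9.77 and 9.94 under anisomycin and 9.95, 9.95 and 9.88 under imiquimod, at 0.19 (SE 0.06, adjusted p = 0.0323, limma) and 0.28 (SE 0.06, adjusted p = 0.00473). Rpl10, which joins the 60S subunit late in its maturation, read 12.57, 12.39 and 12.49 under vehicle, 12.62, 12.68 and 12.67 under anisomycin and 12.66, 12.65 and 12.64 under imiquimod. Treated and vehicle values did not overlap for either gene, but the sign of the anisomycin difference turned under repeated quantile normalization and under cyclic loess for both, and that of the imiquimod difference of Rpl10 under cyclic loess. Rps4l, which RefSeq lists as a transcribed pseudogene, read 7.97, 8.01 and 7.87 under vehicle, 8.06, 8.28 and 8.15 under anisomycin and 8.12, 8.15 and 8.27 under imiquimod, at 0.21 (SE 0.07, adjusted p = 0.038, limma) and 0.23 (SE 0.07, adjusted p = 0.0279). Its sign was kept, but the anisomycin call was lost in 11 of the 22 alternatives and the imiquimod call in 7. Repeated quantiles, cyclic loess and the most stable genes each lost both.

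Another 6 genes were higher under imiquimod than under vehicle and not called under anisomycin: Rpl8, Rpl29, Rps2, Rps3, Rps13 and Rps27l. Rps27l, a p53-induced relative of Rps27, read 9.16, 8.80 and 9.05 under vehicle, 9.08, 9.15 and 9.16 under anisomycin and 9.36, 9.39 and 9.22 under imiquimod. Only imiquimod lay wholly above vehicle, by 0.32 (SE 0.09, adjusted p = 0.017, limma). Rps13 read 9.13, 8.83 and 9.07 under vehicle, 8.91, 9.14 and 9.24 under anisomycin and 9.33, 9.31 and 9.32 under imiquimod, a rise of 0.31 (SE 0.10, adjusted p = 0.0288, limma). None of these 6 imiquimod calls held under all 4 other scalings.

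Members with a restricted tissue range were dim. Rpl3l, the striated-muscle paralog of Rpl3, fell most of all members: it read 5.53, 5.97 and 5.51 under vehicle, 4.76, 4.98 and 5.11 under anisomycin and 4.94, 4.85 and 4.81 under imiquimod. All treated values lay below all vehicle values, at −0.72 (SE 0.13, adjusted p = 0.0014, limma) and −0.80 (SE 0.13, adjusted p = 0.000803). Both calls held under the 21 alternatives that include Rpl3l, which was absent from the fit without the dimmest 30% of genes. All 10 skeletal muscle markers of a fixed list were lower under both agents, with array means of 9.44 to 10.2 under vehicle, 7.70 to 7.92 under anisomycin and 7.49 to 8.12 under imiquimod, and their part in the fall of Rpl3l was not tested. In bulk tissue, fewer cells of a type and less RNA per cell cannot be told apart. Rpl10l, a paralog of Rpl10 used in the testis, read 4.92, 4.97 and 4.86 under vehicle, 4.97, 4.78 and 4.67 under anisomycin and 5.06, 5.06 and 5.21 under imiquimod, and only the difference between the treatments was called (−0.31, SE 0.08, adjusted p = 0.0268, limma). Rpl39l, the paralog of Rpl39, stayed between 3.69 and 3.94 on the 9 arrays and was not called in any comparison.

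The acidic stalk recruits elongation factors to the 60S subunit. Rplp0, its anchor, read 12.85, 12.69 and 12.81 under vehicle, 12.60, 12.62 and 12.63 under anisomycin and 12.72, 12.76 and 12.73 under imiquimod, with anisomycin −0.17 (SE 0.05, adjusted p = 0.0265, limma) from vehicle. Its partners Rplp1 and Rplp2 differed from vehicle by −0.02 and −0.03 under anisomycin and by 0.08 and 0.04 under imiquimod, and neither was called. Rps6, the substrate of the S6 kinases, read 12.83, 12.74 and 12.81 under vehicle, 12.79, 12.76 and 12.78 under anisomycin and 12.79, 12.79 and 12.73 under imiquimod. Its groups overlapped throughout, and no comparison was called. These are 3 of the 25 members called in no comparison, whose differences ranged from −0.21 to 0.10 under anisomycin and from −0.06 to 0.30 under imiquimod against vehicle.

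Averaged over the 59 genes, the arrays differed within the anisomycin group. Relative to each gene's vehicle mean, the members stood at −0.20, −0.10 and −0.07 on anisomycin arrays 1, 2 and 3, at 0.08, 0.07 and 0.02 on the imiquimod arrays and at 0.02, −0.05 and 0.03 on the vehicle arrays. For the 40S genes alone the anisomycin arrays stood at −0.30, −0.15 and −0.13, and for the 60S genes at −0.15, −0.06 and −0.03. All 3 anisomycin arrays lay below all others in both subunits except that anisomycin array 3 (−0.03) lay above vehicle array 2 (−0.05) in the 60S mean. Without anisomycin array 1 the members' median difference was −0.06 from vehicle and −0.11 from imiquimod. Anisomycin array 1 also had the lowest mean of 11 cell cycle genes within its group, 7.81 against 8.27 and 8.48, and the lowest of 7 keratinocyte markers, 11.3 against 11.5 and 11.7. Its means of the T cell, skeletal muscle, adipocyte, fibroblast and ear cartilage markers were the lowest of its group as well. Its neutrophil, B cell and endothelial means were the highest, and its monocyte and macrophage mean lay between. The part of any of these in the ribosomal protein values was not tested.

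**Figure D3:**
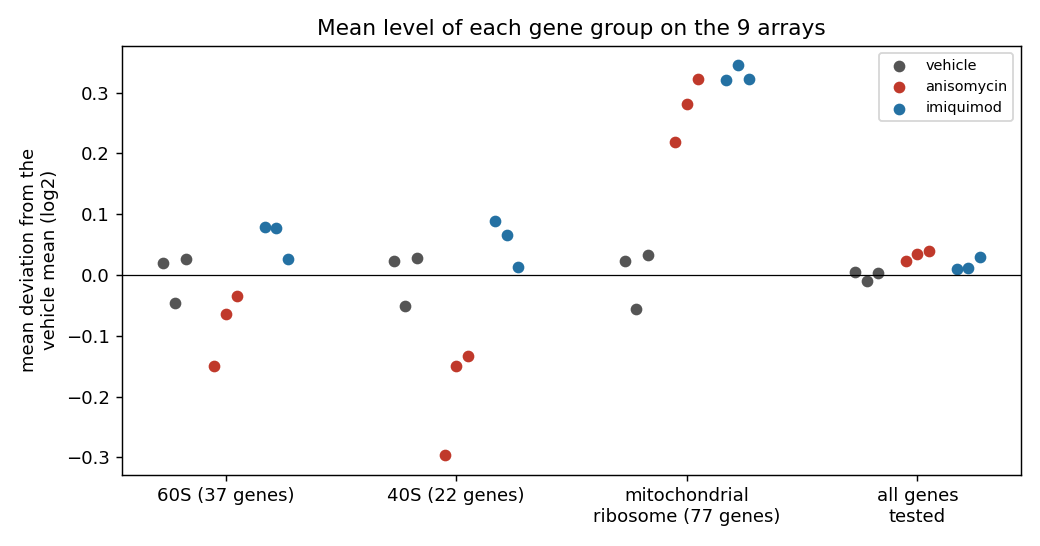
Mean log2 deviation from the vehicle mean on each of the 9 arrays, over the 60S genes, the 40S genes, the genes of the mitochondrial ribosome and all genes tested, 1 point per array. In the 40S genes the 3 anisomycin arrays lie at −0.30, −0.15 and −0.13, below all other arrays, while all 6 treated arrays lie above vehicle in the mitochondrial ribosome.

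The mix of cell type markers in the tissue changed as well. All 8 neutrophil markers were higher under both agents, with array means of 5.14 to 5.29 under vehicle, 8.12 to 8.55 under anisomycin and 8.75 to 8.81 under imiquimod. Of 7 monocyte and macrophage markers 6 were higher under each agent. Of 6 T cell markers 0 were higher and 2 lower under each agent, and of 5 B cell markers 0 were called. Of 8 adipocyte markers 7 were lower under each agent, as were 7 of 8 ear cartilage markers and 6 of 8 fibroblast markers. Endothelial markers, 8 in number, had 3 lower and 1 higher under anisomycin, and 5 lower and 0 higher under imiquimod. Keratinocyte markers, 7 in number, had 3 lower and 2 higher, and 1 lower and 3 higher. Among all genes 23.3% were lower and 22.3% higher under anisomycin, and 22.4% and 20.4% under imiquimod. The 7 keratinocyte markers averaged 11.4 to 11.7 under vehicle, 11.3 to 11.7 under anisomycin and 11.9 on the imiquimod arrays, so the epidermal genes of the labelled tissue were present on every array. Between the treatments, 9.59% of all genes were lower under anisomycin and 10.8% higher. Of 11 cell cycle genes 9 were lower and 0 higher. Of the 8 neutrophil markers 5 were lower and 2 higher, of the 7 keratinocyte markers 3 were lower and 0 higher, of the 7 monocyte and macrophage markers 2 were lower and 3 higher, and of the 8 endothelial markers 0 were lower and 3 higher. The part of these shifts in the ribosomal protein genes was not tested.

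The scaling of the arrays changed the counts against vehicle, and for imiquimod also the direction, but not the direction between the treatments. The 4 other scalings were computed on the 19938 genes tested, with 1 probe set each, and not on all 35556 rows of the deposited table. Repeating quantile normalization on these genes left 43 members lower and 1 higher under anisomycin and 25 lower and 3 higher under imiquimod. Cyclic loess left 46 and 1, and 34 and 3. Centring each array on its median gave 13 lower and 6 higher under anisomycin and 2 lower and 16 higher under imiquimod. The median difference of the members under imiquimod was accordingly 0.05 as deposited, 0.09 with array medians, −0.03 with the most stable genes, −0.14 with repeated quantiles and −0.26 with cyclic loess, so it has no settled sign. In the same order, the median over all genes was −0.03, 0.02, −0.10, −0.01 and 0.01. The members thus lay below it only with repeated quantiles and cyclic loess. Of all 19938 genes, 4572 were lower and 3757 higher under imiquimod with repeated quantiles. These counts were 4166 and 4198 with cyclic loess, and 3768 and 4550 with array medians. With the most stable genes they were 6137 and 3512, where 10 of the 59 members were lower and 6 higher. Between the treatments, 15 to 24 members were lower and 0 higher under all 4 other scalings, where 1920 to 2120 of all 19938 genes were lower and 1960 to 2258 higher. Of the 18 genes called lower there, 14 kept the call under the 4 scalings and 11 under all 22 alternatives: Rpl8, Rpl13, Rpl24, Rpl37a, Rps4x, Rps9, Rps12, Rps20, Rps25, Rps28 and Rpsa. Of the 21 lower than vehicle under anisomycin, 12 kept the call under every alternative that includes them: Rpl3l, Rpl5, Rpl13, Rpl37a, Rps4x, Rps7, Rps10, Rps12, Rps14, Rps20, Rps25 and Rps28. Of these, Rpl3l was absent from the fit without the dimmest 30% of genes.

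**Figure D4:**
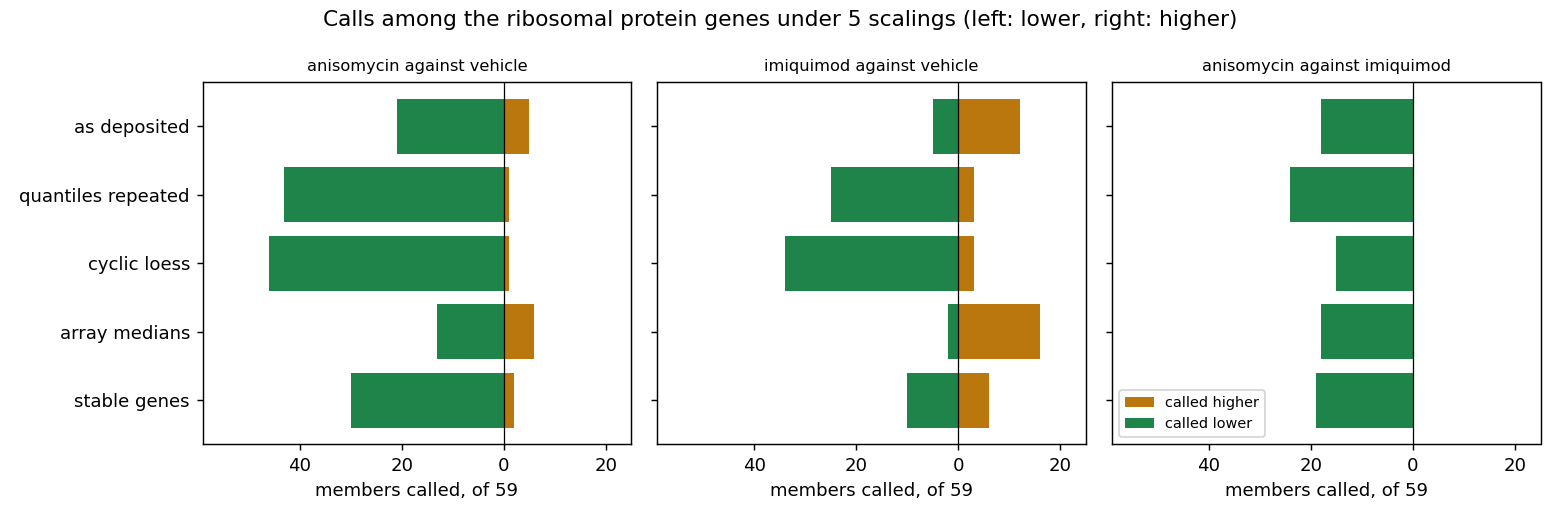
Number of the 59 ribosomal protein genes called lower (left of 0) and higher (right of 0) in each comparison, for the values as deposited and for 4 other scalings of the arrays. Against vehicle the balance shifts with the scaling, from 5 lower and 12 higher to 34 lower and 3 higher for imiquimod, while between the treatments 0 genes are called higher under any of the 5.

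More than 1 probe set carried the symbol in 39 of the 59 genes, which gives a second reading of each, although such probe sets can overlap in sequence and share the RNA and the array. All probe sets of a gene had the same sign in 34 of the 39 genes for anisomycin against vehicle, in 31 for imiquimod against vehicle and in 36 between the treatments. Among genes called, this was so for 19 of 19, 8 of 9 and 13 of 13. Every probe set was itself called in fewer of these genes, 10 of 19, 4 of 9 and 7 of 13. All 7 probe sets of Rps28, all 6 of Rps25 and all 5 of Rps4x were called lower than vehicle under anisomycin. The range within a gene had a median of 0.08, 0.07 and 0.06, and was widest in Rps4l (0.49) and in Rpsa (0.42 for imiquimod against vehicle). Many mouse ribosomal protein genes have processed pseudogenes with near-identical sequence, so probe sets can pick up shared transcripts.

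**Figure D5:**
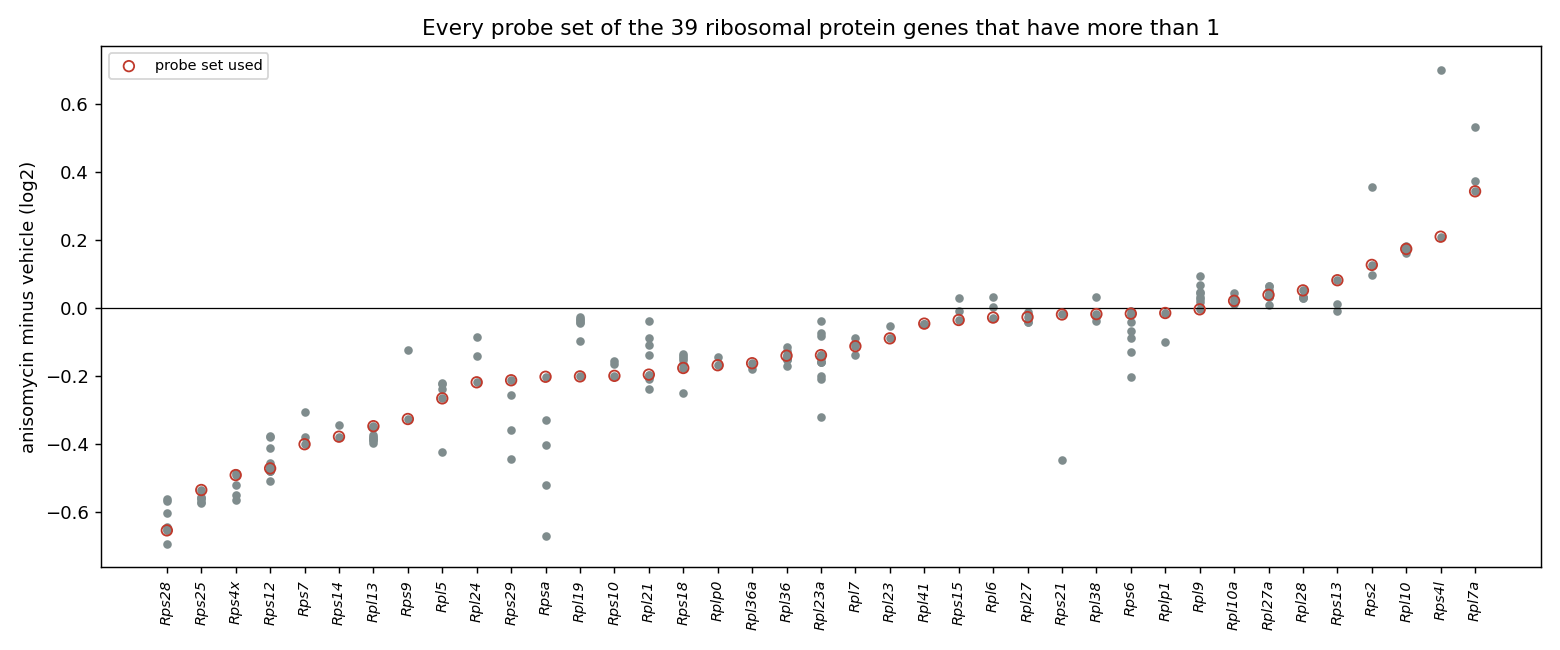
Log2 difference between anisomycin and vehicle for every probe set of the 39 genes with more than 1, with the brightest probe set, which was used, ringed. The probe sets of Rps28, Rps25 and Rps12 lie close together, while those of Rpsa spread from −0.67 to −0.20.

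Most genes that build ribosomes were higher than vehicle under both agents. Of 45 measured ribosome biogenesis genes, which act in the nucleolus on ribosomal RNA and pre-subunits, 42 were higher and 0 lower than vehicle under anisomycin (median 0.83) and 40 were higher and 0 lower under imiquimod (median 0.68). The largest rises under anisomycin were in Pno1 (1.65), Nop56 (1.64) and Nop58 (1.60). Under the 4 other scalings 42 to 43 and 39 to 41 were higher. As deposited, 22.3% of all genes were higher and 23.3% lower under anisomycin, and 20.4% and 22.4% under imiquimod. Of the 77 measured proteins of the mitochondrial ribosome, 38 were higher and 2 lower under anisomycin (median 0.22), and 52 higher and 0 lower under imiquimod (median 0.32). Between the treatments 2 of these 77 were higher (2.6%) and 9 lower (11.7%), against 10.8% and 9.59% of all genes. Of 14 dedicated chaperones and importers of ribosomal proteins, 9 were higher under anisomycin and 11 under imiquimod, with 0 lower in either, among them Grwd1 (1.37 under anisomycin and 1.05 under imiquimod, an order kept for the pairs of differences below) and the importin Kpnb1 (0.97 and 0.97). The contrast of these lists with the cytosolic ribosomal proteins was not tested.

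The other mRNAs with a 5′ terminal oligopyrimidine tract, such as those of elongation factors, were split: of 17, 5 were higher and 3 lower under anisomycin, 6 higher and 1 lower under imiquimod, and 0 called between the treatments. With repeated quantiles 6 were higher and 9 lower under anisomycin and 6 and 4 under imiquimod, and with cyclic loess 4 and 9, and 4 and 6, so their balance has no settled direction against vehicle. Their largest rises were Npm1, a nucleolar chaperone (0.79 and 0.87), Nap1l1, a histone chaperone (0.67 and 0.77), and Eef1d, a subunit of the elongation factor 1 complex (0.58 and 0.64). Of 17 genes that control such mRNAs, 7 were higher and 4 lower under anisomycin, and 9 higher and 2 lower under imiquimod, with 5 to 7 higher and 3 to 6 lower, and 8 to 10 higher and 2 to 3 lower, under the 4 other scalings. Sesn2, a stress-induced inhibitor of mTORC1, rose by 1.39 and 0.98, and Eif4ebp1, the translational repressor that mTORC1 inactivates, by 0.66 and 1.00. Ddit4, another stress-induced inhibitor of mTORC1, fell, with differences of −0.71 (SE 0.08, adjusted p = 5.75e-05, limma) and −0.67 (SE 0.08, adjusted p = 0.000107). Rps6kb2, an S6 kinase, rose by 0.38 and 0.88. Between the treatments, Eif4ebp2 differed by −0.58 and Rps6kb2 by −0.51. Larp1, the protein that binds these tracts, differed between anisomycin and imiquimod by −0.42 (SE 0.07, adjusted p = 0.00322, limma). Of 13 regulators of transcription of ribosomal protein genes 8 were higher and 2 lower under anisomycin and 5 higher and 0 lower under imiquimod, including Mxd1, an antagonist of Myc (2.22 and 1.44), Gabpb1, a subunit of GABP (1.15 and 0.51), and Myc (0.71 and 0.45). Under the 4 other scalings 5 to 8 were higher and 2 to 4 lower under anisomycin, and 3 to 6 higher and 0 to 3 lower under imiquimod. For all these lists the background as deposited was 22.3% of all genes higher and 23.3% lower under anisomycin. It was 20.4% and 22.4% under imiquimod, and 10.8% and 9.59% between the treatments.

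Of 22 genes that handle stalled ribosomes or carry the ribotoxic stress response, 12 were higher and 2 lower under anisomycin, and 11 higher and 3 lower under imiquimod, with 10 to 12 higher and 2 to 5 lower, and 9 to 11 higher and 2 to 6 lower, under the 4 other scalings. As deposited, 22.3% of all genes were higher and 23.3% lower under anisomycin, and 20.4% and 22.4% under imiquimod. Abce1, which splits ribosomes for recycling, rose by 1.29 and 0.99. Eif2ak4, the kinase GCN2, fell, with differences of −0.54 (SE 0.08, adjusted p = 0.000367, limma) and −0.74 (SE 0.08, adjusted p = 6.78e-05). Mapk8, which encodes the kinase JNK1, was 0.67 higher (SE 0.09, adjusted p = 0.00121, limma) under anisomycin than under imiquimod. Mdm2, the p53 ligase to which Rpl5 binds, was higher by 0.67 in the same comparison (SE 0.09, adjusted p = 0.00148, limma). Mapk14, which encodes p38 alpha, went the other way, at −0.42 (SE 0.10, adjusted p = 0.0211, limma). Of 4 measured ribosome-linked proteins outside the rule, Rpl7l1, a relative of Rpl7 that works in 60S assembly, rose by 0.82 and 0.49 and Rps19bp1, a partner of Rps19, by 0.78 and 0.35. Rps3a1, a 40S protein whose symbol the rule does not take, was −0.24 (SE 0.08, adjusted p = 0.0286, limma) from vehicle under anisomycin and −0.39 (adjusted p = 0.00857) from imiquimod.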

How the data were processed

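The authors deposited 1 table of log2 expression values for 9 arrays, made with RMA per the submitters' processing notes. Its version, its genome build and whether all arrays were normalized together are not given in the sources used here, and the log2 scale was judged from the range of the values. Of 35556 rows, the 21789 with 1 symbol in the platform annotation were used, with the probe set of highest mean over the 9 arrays kept for each gene. No filter on dim genes was applied.

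Each of the 19938 genes was fitted by group means without covariates in limma 3.58.1 (R 4.3.3), which left 6 residual degrees of freedom. The 3 contrasts were two-sided and adjusted by Benjamini-Hochberg over all genes. An exact rank test of 3 against 3 cannot go below p = 0.1, and precision is limited by there being 3 arrays a group. The fit was tested on simulated data.

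The members, lists and naming rule were chosen with earlier results of these data known. Named members are the 6 largest called rises and falls per contrast, paralogs and partners, the stalk, Rpsa, Rps6 and Rpl5. Other lists name up to 3 called genes per contrast by size. Others that are named (among them the probe set counts and members of small call groups) were chosen after their values were seen. Alternatives were other scalings, filters, choices of probe set, array weights, a replicate block, fits on 2 groups and each array left out.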

Additional observations from a re-analysis of the deposited data

How the results depend on the processing

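Under repeated quantile normalization, members higher and lower than vehicle numbered 1 and 43 for anisomycin (median −0.32) and 3 and 25 for imiquimod (median −0.14). Under cyclic loess they numbered 1 and 46 (median −0.37) and 3 and 34 (median −0.26). With arrays centred on the 1000 genes of most stable rank, 2 were higher under anisomycin (median −0.19), and 6 were higher and 10 lower under imiquimod (median −0.027). Under that scaling the median over all genes was −0.091 for anisomycin and −0.0985 for imiquimod. Of all 19938 genes, 3773 were higher and 6390 lower under anisomycin there, and 3512 and 6137 under imiquimod. With arrays centred on their medians, 13 were lower under anisomycin and 2 under imiquimod. With array weights, 2 were higher and 35 lower under anisomycin than under imiquimod. A fit on the 2 groups compared left 2 higher under anisomycin than under vehicle. The cause of these changes was not tested.

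Same-numbered arrays deviated from their group means with correlations of −0.20 to 0.20, so the numbers were taken as names only. With the replicate number as a block, 2 members were higher and 20 lower under anisomycin, 11 higher and 4 lower under imiquimod, and 0 higher and 15 lower between the treatments.

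Leaving out each array in turn gave 2 to 5 higher and 16 to 23 lower members (median −0.15 to −0.059) for anisomycin against vehicle, 6 to 16 higher and 1 to 7 lower (median 0.02 to 0.07) for imiquimod against vehicle, and 0 higher and 11 to 19 lower (median −0.19 to −0.11) between the treatments. The 5 higher members under anisomycin became 3, 2, 3 and 2 without anisomycin arrays 2 and 3 and vehicle arrays 1 and 3. The 12 higher and 5 lower under imiquimod became 7 and 2, 6 and 1, 9 and 1, 10 and 2, and 8 and 1 without imiquimod arrays 1, 2 and 3 and vehicle arrays 1 and 3. Reading rows with several symbols as well gave 74 members, with 5 higher and 27 lower, 15 higher and 7 lower, and 0 higher and 21 lower.

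Of single genes, the difference from vehicle under anisomycin turned to −0.032 for Rpl10 and −0.057 for Rpl34 with repeated quantiles, and to −0.20 and −0.021 with cyclic loess. Under imiquimod it turned to −0.26 for Rpl10 and −0.36 for Rplp1 with cyclic loess.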
